A study of Mus musculus with 14 samples.

Results

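The eukaryotic initiation factors (eIFs) and elongation factors (eEFs) were examined in 14 mouse heart libraries. Members were the protein-coding autosomal genes whose GENCODE M21 symbol begins with Eif or Eef followed by a digit, pseudogenes excluded. The rule took 65 of the 54532 genes in the count files, of which 21918 are protein-coding. It uses names only and no measured value. The members fell into eIF1 and eIF1A (4 genes), eIF2 with related tRNA-delivering factors (4), the eIF2 kinases (4), eIF2B (5), eIF3 (14), eIF4 (16), eIF5, eIF5A, eIF5B and eIF6 (5), eEF1 (6), eEF1A methyltransferases (4) and eEF2 with its modifiers (3). Of the 14 other symbols that match the pattern, 10 are pseudogenes, 3 are sex-linked coding genes (*Eif1ax*, *Eif2s3x* and *Eif2s3y*) and 1, *Eif2c5*, is a non-coding gene.

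Translation begins when eIF2 carries the initiator tRNA to the small ribosomal subunit, and eIF2B recharges eIF2 with GTP after each round. Kinases that phosphorylate eIF2 turn it into an inhibitor of eIF2B, which is the core switch of the integrated stress response. The eIF4 proteins recruit capped mRNA, eIF3 is the large scaffold on the small subunit, and eEF1 and eEF2 deliver aminoacyl-tRNA and move the ribosome along the message. In adult heart and skeletal muscle, eEF1A2 is known to replace part of the eEF1A1 of other tissues.

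All mice were C57BL/6. The labels give day 180 for every heart, whereas the study's text gives an older age. YG8-800 mice (4 libraries) are homozygous for a constitutive null allele of a nuclear gene, made by an exon deletion, and hemizygous for a human transgene of its counterpart with an expanded GAA repeat in its first intron. Their reference was 4 libraries labelled WT, which the study describes as littermates without the transgene. KIKO-700 males (3 libraries) and KIKO-700 females (3 libraries) carry an expanded GAA repeat in the first intron of the mouse gene on one allele and an exon deletion on the other, in every cell. No WT library of the KIKO-700 line was analysed here, so the only contrast within that line was between the sexes. Each library holds 3′ tags from heart tissue, in which fewer cells of a type and less RNA per cell cannot be told apart. Which parts of the heart were taken is not stated.

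Totals were between 5226233 and 11650840 counts per library, and mitochondrial DNA genes took between 28.9% and 44.6% of them. The 5 cardiomyocyte markers summed to between 13177 and 20558 CPM (the counts-per-million unit) in YG8-800, 12505 and 21506 CPM in WT, 18060 and 22122 CPM in KIKO-700 males and 18713 and 20411 CPM in KIKO-700 females. The YG8-800 and WT labels give no sex, and the study states that only males of this line were used. Yet *Xist*, which is transcribed from the inactive X of females, was between 32.5 and 60.2 CPM of the library total in WT 1, WT 2, WT 4, YG8-800 1 and YG8-800 3, and at most 0.272 in the other 3. *Eif2s3y*, the Y-linked eIF2 gamma gene, was between 6.63 and 27.2 CPM of the total in those other 3 libraries (YG8-800 2, YG8-800 4 and WT 3) and at most 0.126 in the 5. Labels were kept as given, and whether each stands for the genotype it names is not settled by these counts. In KIKO-700 both genes matched the labelled sex in all 6 libraries. Within the 4 groups, the SD across genes of a library's distance from the rest of its group was largest in WT, between 0.698 and 0.853 on the log2 scale, against 0.459 to 0.596 in YG8-800. In KIKO-700 it was 0.601 in male 1 and 0.417 to 0.419 in the other males, against 0.318 to 0.358 in females.

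The members with the strongest single-gene contrasts are shown first by their promoters, since they carry what is described below. Each window runs from 250 bases before to 50 bases after the start that RefSeq annotates on GRCm38.p6, and capitals mark the letters CCGGAAGT, a form of the motif bound by ETS-family factors. The windows are *Eif2b2* at chr12:85219231-85219530 (plus strand), *Eif2b4* at chr5:31193090-31193389 (minus strand), *Eif4e2* at chr1:87213661-87213960 (plus strand, the first of 3 annotated starts) and *Eif4ebp2* at chr10:61452620-61452919 (minus strand).
Eif2b2: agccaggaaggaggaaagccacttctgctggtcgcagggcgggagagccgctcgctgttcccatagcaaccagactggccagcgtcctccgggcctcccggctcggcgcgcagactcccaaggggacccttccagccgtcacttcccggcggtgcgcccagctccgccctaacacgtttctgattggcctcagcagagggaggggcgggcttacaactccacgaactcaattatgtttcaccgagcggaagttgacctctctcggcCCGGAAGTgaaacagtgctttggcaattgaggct
Eif2b4: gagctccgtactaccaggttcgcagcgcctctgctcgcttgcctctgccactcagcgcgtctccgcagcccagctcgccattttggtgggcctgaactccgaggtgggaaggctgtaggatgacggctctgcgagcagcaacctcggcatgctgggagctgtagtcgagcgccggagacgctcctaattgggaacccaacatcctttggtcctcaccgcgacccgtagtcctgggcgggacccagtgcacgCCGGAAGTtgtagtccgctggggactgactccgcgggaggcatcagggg
Eif4e2: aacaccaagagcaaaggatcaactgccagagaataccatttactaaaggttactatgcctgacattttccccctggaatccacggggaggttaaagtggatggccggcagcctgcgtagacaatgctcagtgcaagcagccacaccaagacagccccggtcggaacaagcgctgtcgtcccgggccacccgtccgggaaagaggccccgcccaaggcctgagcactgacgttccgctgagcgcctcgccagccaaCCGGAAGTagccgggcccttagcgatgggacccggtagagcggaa
Eif4ebp2: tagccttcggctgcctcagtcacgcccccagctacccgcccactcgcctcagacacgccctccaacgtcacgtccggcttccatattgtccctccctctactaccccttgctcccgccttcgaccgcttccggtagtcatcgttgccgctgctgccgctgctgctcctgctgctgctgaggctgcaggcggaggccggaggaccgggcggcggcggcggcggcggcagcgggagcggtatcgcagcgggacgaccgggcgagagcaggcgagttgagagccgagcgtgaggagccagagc

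In *Eif2b2*, *Eif2b4* and *Eif4e2* the motif begins 17, 2 and 6 bases downstream, counting the start as base 1, whereas the *Eif4ebp2* window holds none. From the later annotated starts of *Eif4e2* the same motif begins 3 bases downstream and 23 bases upstream. The sequences are GC-rich, at 62.7%, 64.7%, 60% and 70% in *Eif2b2*, *Eif2b4*, *Eif4e2* and *Eif4ebp2*. Windows were found for 49 of the 65 members (64 windows, since some genes have several starts). On either strand, CCGGAAGT was in 11 of these windows (17.2%), from 9 members, against 3.89% of all 32851 windows. CACGTG, the E-box bound by MYC among others, was in 15 member windows (23.4%), against 7.15% of all windows. TGACGTCA, a cAMP-response motif, was in 1 member window (1.56%), that of *Eef2*, against 1.79% of all windows. TATAAA was in 4 (6.25%), against 13.6% of all windows. These motifs were picked after the sequences were read, none contains another, and windows of 1 gene share bases, so the shares are descriptions only.

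The comparison of libraries labelled YG8-800 with those labelled WT asks how factor mRNAs stand when the product of the altered gene is scarce. edgeR's quasi-likelihood test could be run on 62 of the 65 members. *Eef1akmt3*, *Eif4e1b* and *Eif5a2* were too low, at or under 0.730 CPM in all 8 libraries. No member passed an adjusted p of 0.05 by edgeR, and none did by DESeq2. Over all 11875 genes tested the count was 0 by edgeR and 7 by DESeq2. At an unadjusted p under 0.05 there were 3 members, *Eif2b4* and *Eif4ebp2* higher in YG8-800 and *Eif2b2* lower, which is 4.84% of those tested against a background of 6.05% (3.04% higher and 3.01% lower). Without WT 4 there were 8 (12.9%, background 13.8%). The log2 fold change was above 0 for 42 of the 62 members (67.7%), against 49.5% of all genes, and the median was 0.16 for members and −0.01 for all genes. With library size alone as the scaling the member median was −0.030, against −0.209 for all genes. Without WT 2 and WT 3 the member median was 0.059, against 0.006 for all genes. The groups did not overlap in 2 members (3.23%, background 3.67%), *Eif2b2* and *Eif4g2*, both lower in YG8-800.

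**Figure D1:**
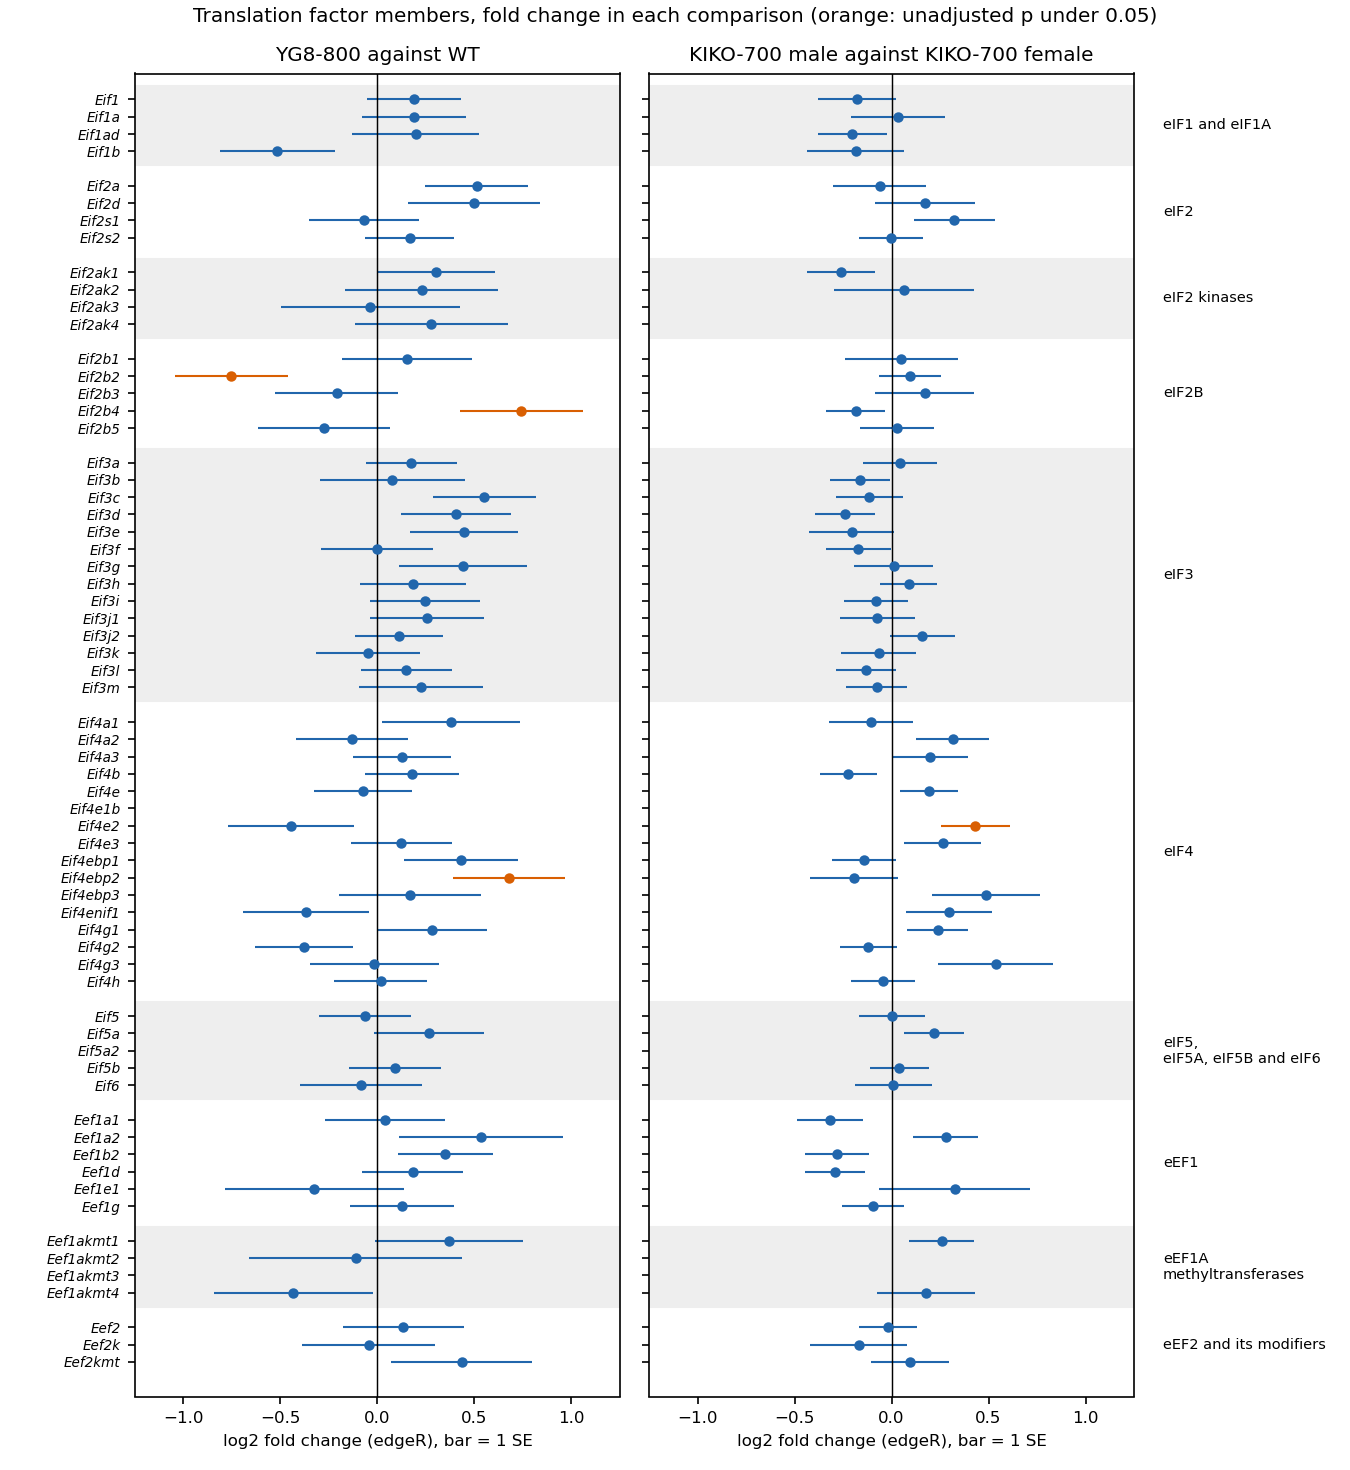
Log2 fold changes of the members tested in each comparison (x axis, edgeR, bars of 1 SE), grouped by complex from top to bottom; orange marks an unadjusted p under 0.05. Only *Eif2b2*, *Eif2b4* and *Eif4ebp2* are orange on the left and only *Eif4e2* on the right, and no member passed the adjusted threshold in either comparison.

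Of the eIF2B subunits, *Eif2b2* was lower and *Eif2b4* higher at the unadjusted threshold. *Eif2b2* (ENSMUSG00000004788, chr12:85219481-85226628) encodes the beta subunit, and *Eif2b4* (ENSMUSG00000029145, chr5:31187558-31193430) the delta subunit, both of the regulatory part of the complex that senses phosphorylated eIF2. *Eif2b2* was at 12.6, 5.49, 8.18 and 11.8 CPM in YG8-800, against 18.8, 14.9, 16.9 and 13.9 CPM in WT. Every YG8-800 library was below every WT library. The log2 fold change was −0.75 ± 0.29 (SE), with an unadjusted p of 0.0204 and an adjusted p of 0.787 by edgeR. *Eif2b4* was at 28.3, 27.3, 34.4 and 37.9 CPM in YG8-800, against 28.9, 13.3, 9.96 and 24.1 CPM in WT. The ranges overlap through WT 1, which stood above 2 of the YG8-800 libraries, and WT 2 and WT 3 were the lowest. The log2 fold change was 0.74 ± 0.32, with an unadjusted p of 0.034 and an adjusted p of 0.812 by edgeR.

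Leaving out single libraries moved both subunits across the unadjusted threshold. *Eif2b2* kept an unadjusted p under 0.05 in 19 of 21 alternatives, with edgeR's value at 0.0646 without YG8-800 2 and 0.0575 without YG8-800 3. *Eif2b4* kept it in 15 of 21, and without WT 2 and WT 3 its log2 fold change was 0.26 with an unadjusted p of 0.365 by edgeR. The other subunits did not pass either threshold. *Eif2b1*, the alpha subunit, averaged 5.38 ± 1.39 CPM in YG8-800 and 4.93 ± 1.58 CPM in WT (SD, n = 4 each). *Eif2b3* (gamma) averaged 5.08 ± 0.626 CPM in YG8-800 and 5.95 ± 2.18 CPM in WT, and *Eif2b5*, the catalytic epsilon subunit, 12.5 ± 4.48 CPM in YG8-800 and 15.1 ± 6.51 CPM in WT. The 5 subunits thus showed no shared direction, with 2 log2 fold changes above 0 and a median of −0.21, which ranged from −0.39 to 0.058 when each library was left out.

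**Figure D2:**
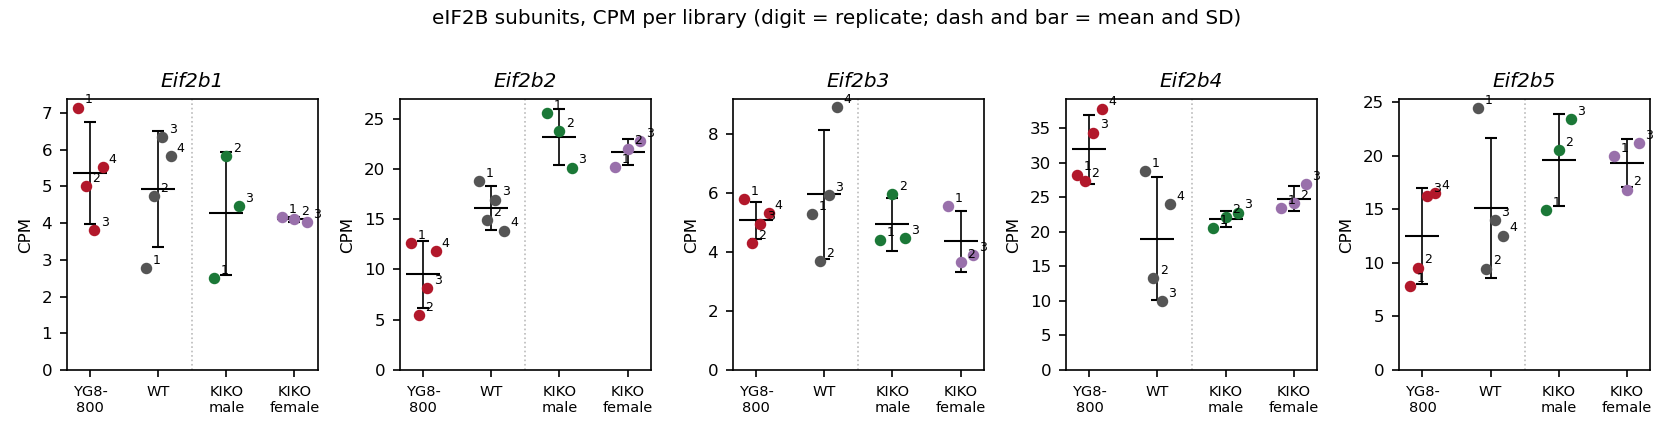
CPM (y axis, from 0) of the 5 eIF2B subunits in every library; the digit is the replicate, the dash the mean and the bar the SD, and the dotted line separates the experiments, which were scaled separately. *Eif2b2* separates YG8-800 (5.49 to 12.6 CPM) from WT (13.9 to 18.8 CPM), while *Eif2b4* overlaps through WT 1.

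The eIF2 group stood above 0 in 3 of 4 genes, none past a threshold. *Eif2a*, an alternative initiator tRNA carrier, averaged 13.8 ± 2.14 CPM in YG8-800 and 9.74 ± 2.75 CPM in WT (SD, n = 4 each), with a log2 fold change of 0.51 and an unadjusted p of 0.0749 by edgeR. *Eif2s1* and *Eif2s2*, the alpha and beta subunits of eIF2, had log2 fold changes of −0.07 and 0.17, and *Eif2d*, which acts in reinitiation, 0.50. The 4 kinases respond to haem shortage or mitochondrial stress (*Eif2ak1*, HRI), double-stranded RNA (*Eif2ak2*, PKR), unfolded protein in the endoplasmic reticulum (*Eif2ak3*, PERK) and uncharged tRNA (*Eif2ak4*, GCN2). *Eif2ak1* was at 12.7, 11.3, 13.3 and 11.5 CPM in YG8-800, against 13.4, 7.13, 5.51 and 13.3 CPM in WT. WT 2 and WT 3 were again low, and the log2 fold change was 0.30 with an unadjusted p of 0.334 by edgeR. *Eif2ak2*, *Eif2ak3* and *Eif2ak4* were each at most 3.18 CPM in every library, with log2 fold changes of 0.23, −0.04 and 0.28 and no p under 0.05.

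Around eIF2, 10 other genes of the integrated stress response were tested. At an unadjusted p under 0.05 there were 2 (20%, against 6.05% of all genes). *Abcf3*, the mammalian relative of a yeast activator of Gcn2, was higher and *Trib3*, a target of ATF4, lower. *Abcf3* was at 7.44, 4.66, 6.20 and 4.77 CPM in YG8-800, against 3.64, 1.95, 1.48 and 4.09 CPM in WT (log2 fold change 1.03). *Trib3* was at 1.37, 0.955, 0.846 and 1.08 CPM in YG8-800, against 2.88, 1.80, 2.54 and 1.90 CPM in WT (log2 fold change −1.07). In both genes the groups did not overlap, as in 3.67% of all genes, and the adjusted p was 0.786 for *Abcf3* and 0.787 for *Trib3* by edgeR. *Atf4*, the transcription factor translated when eIF2 is phosphorylated, had a log2 fold change of −0.30 and *Ddit3* (CHOP), another effector, 0.12, neither past a threshold. The median of the 10 was 0.02, and 5 were above 0.

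The eIF3 subunits leaned to higher values in YG8-800 without any passing the unadjusted threshold. Log2 fold changes lay above 0 in 12 of 14 genes, between −0.05 for *Eif3k* and 0.55 for *Eif3c*, with a median of 0.20. This median was 0.043 with library size alone, where that of all genes was −0.209. Without WT 2 and WT 3 it was 0.052, where that of all genes was 0.006. *Eif3c*, a core subunit that anchors the complex, was at 79.9, 69.96, 94.9 and 79.6 CPM in YG8-800, against 80.8, 38.4, 45.3 and 56.9 CPM in WT. All 4 YG8-800 libraries were above WT 2, WT 3 and WT 4, and WT 1 lay within their range, with an unadjusted p of 0.057 by edgeR. *Eif3g*, which binds mRNA and helps scanning, was at 35.2, 34.9, 33.7 and 33.8 CPM in YG8-800, against 24.8, 12.4, 18.9 and 45.4 CPM in WT. The 4 YG8-800 values were close together and lay inside the wide WT range. *Eif3d*, the cap-binding subunit, averaged 24.4 ± 5.49 CPM in YG8-800 and 18.4 ± 6.23 CPM in WT (SD, n = 4 each), and *Eif3j2* 71.5 ± 7.82 CPM in YG8-800 and 66.3 ± 10.3 CPM in WT.

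Of 15 eIF4 genes tested, 9 had log2 fold changes above 0, and *Eif4ebp2* alone passed the unadjusted threshold. *Eif4ebp2* (ENSMUSG00000020091, chr10:61428491-61452661) encodes a repressor that holds the cap-binding protein eIF4E away from eIF4G until mTORC1 phosphorylates it. It was at 40.05, 16.2, 27.2 and 22.5 CPM in YG8-800, against 19.5, 16.6, 12.5 and 17.5 CPM in WT. YG8-800 1 was the highest of the 8, and YG8-800 2 was below 3 of the 4 WT libraries. The log2 fold change was 0.68 ± 0.29, with an unadjusted p of 0.0345 and an adjusted p of 0.812 by edgeR. The unadjusted p was under 0.05 in 13 of 21 alternatives, and without YG8-800 1 the log2 fold change was 0.41 with an unadjusted p of 0.180 by edgeR.

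The paralog *Eif4ebp1* averaged 35.1 ± 6.01 CPM in YG8-800 and 26.0 ± 11.3 CPM in WT, and *Eif4ebp3* 2.91 ± 0.857 CPM in YG8-800 and 2.56 ± 0.646 CPM in WT (SD, n = 4 each). *Eif4e2*, a cap-binding paralog that represses translation, had the lowest log2 fold change of the group, −0.45, from 14.1 ± 4.70 CPM in YG8-800 and 19.3 ± 6.59 CPM in WT. *Eif4g2*, a scaffold that works without eIF4E, was at 292.1, 287.9, 249.8 and 284.1 CPM in YG8-800, against 335.4, 490.7, 300.6 and 322.2 CPM in WT. The groups did not overlap, the log2 fold change was −0.38 and the unadjusted p was 0.154 by edgeR. *Eif4g3*, another scaffold, had a log2 fold change of −0.02. *Eif4b*, which stimulates the helicase eIF4A, had 0.18.

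Among the elongation factors, *Eef1a2* varied widely between WT libraries. *Eef1a2* (chr2:181147653-181157014), the muscle and neuronal form of the tRNA-delivering factor, was at 169.3, 186.1, 198.1 and 212.2 CPM in YG8-800, against 133.0, 63.1, 58.2 and 273.7 CPM in WT. WT 2 and WT 3 were below all others and WT 4 was above all others. The log2 fold change was 0.54 ± 0.42 with an unadjusted p of 0.227 by edgeR, 1.18 without WT 4 and −0.09 without WT 2 and WT 3. *Eef1a1* (chr9:78478449-78489151), the widespread form, was at 231.6, 186.8, 121.7 and 147.6 CPM in YG8-800, against 91.8, 231.5, 182.4 and 163.6 CPM in WT.

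The balance of paralogs does not depend on scaling between libraries, and tags were not divided by gene length. For *Eef1a1* its own entry was used, without the counts of *Gm26377*, a gene annotated inside its last exon. How the counter treated this nested gene is not stated. A ratio above 1 therefore does not settle whether *Eef1a2* is the more abundant. The *Eef1a2* to *Eef1a1* count ratio was 0.731, 0.996, 1.63 and 1.44 in YG8-800, against 1.45, 0.273, 0.319 and 1.67 in WT. The difference of the mean log2 ratio was 0.75 (exact two-sided permutation p = 0.400, adjusted 0.400 over the 4 ratio tests, smallest possible p 0.0286). Without WT 2 and WT 3 it was −0.45, so those libraries set its direction. For the RNA helicases of the cap-binding complex, the *Eif4a2* to *Eif4a1* ratio was 1.33, 1.27, 1.65 and 1.302 in YG8-800, against 1.56, 2.76, 4.02 and 1.03 in WT. WT 2 and WT 3 were again at one end, here the high one, and the difference was −0.57 (exact two-sided permutation p = 0.343, adjusted 0.400) or 0.12 without them.

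**Figure D3:**
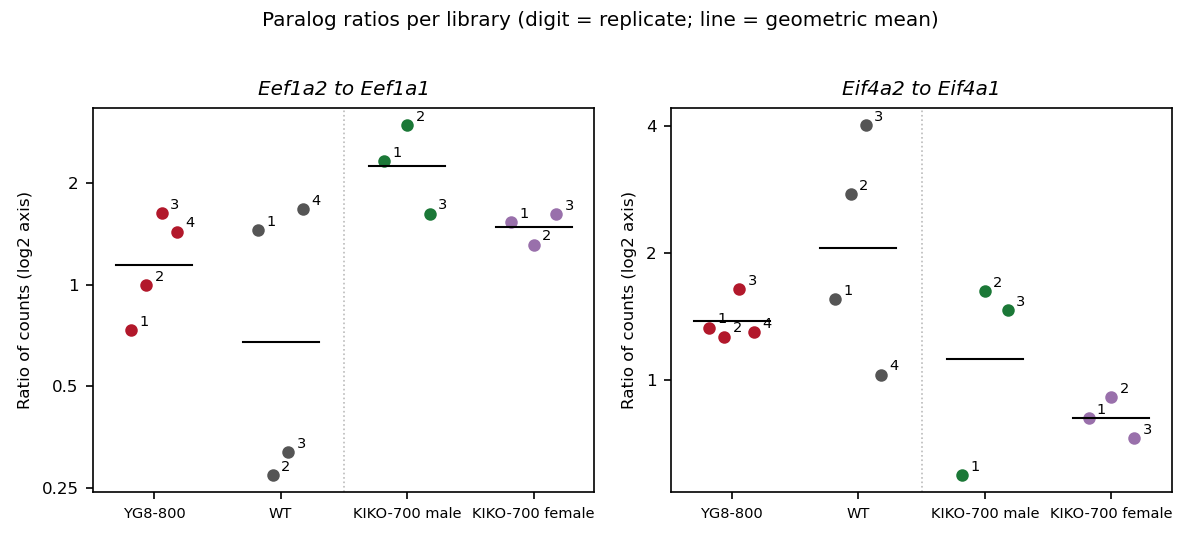
Ratio of counts of *Eef1a2* to *Eef1a1* and of *Eif4a2* to *Eif4a1* (log2 axes) in every library; the digit is the replicate and the line the geometric mean of the group. WT 2 and WT 3 lie at 0.273 and 0.319 on the left and at 2.76 and 4.02 on the right. KIKO-700 male 1 has the lowest *Eif4a2* to *Eif4a1* ratio, 0.597. Counts of *Gm26377* were not added to those of *Eef1a1*.

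The accessory chains of eEF1, which reload eEF1A with GTP, showed smaller differences. *Eef1b2* averaged 178.2 ± 20.9 CPM in YG8-800 and 140.1 ± 28.5 CPM in WT, *Eef1d* 83.1 ± 16.4 CPM in YG8-800 and 73.3 ± 21.05 CPM in WT, and *Eef1g* 37.3 ± 5.01 CPM in YG8-800 and 34.3 ± 10.3 CPM in WT (SD, n = 4 each). *Eef1e1*, a scaffold protein of the tRNA synthetase complex, was at 3.46 ± 0.414 CPM in YG8-800 and 4.51 ± 3.07 CPM in WT. None passed a threshold, and summed over the 6 eEF1 genes the level was 589.7 to 697.1 CPM in YG8-800 and 441.6 to 744.2 CPM in WT. *Eef2*, the translocase, was at 231.3, 363.3, 321.3 and 320.1 CPM in YG8-800, against 307.5, 160.5, 221.6 and 436.9 CPM in WT, with a log2 fold change of 0.13. *Eef2k*, the kinase that inhibits eEF2, had a log2 fold change of −0.05. Outside eIF3 and eIF4, the remaining members tested had log2 fold changes between −0.52 (*Eif1b*, a paralog of the start-codon factor eIF1) and 0.44 (*Eef2kmt*, an eEF2 methyltransferase).

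One macrophage marker differed between these labels. *Csf1r*, *Adgre1* and *Cd68* summed to between 35.7 and 53.5 CPM in YG8-800 and between 62.7 and 85.6 CPM in WT, with *Csf1r* alone past the unadjusted threshold (lower). The log2 fold changes were −0.72 for *Csf1r*, −0.44 for *Adgre1* and 0.38 for *Cd68*, so the markers did not share a direction, and most of the sum is *Csf1r*. None of the 3 was at 0 in any library. The 4 atrial markers summed to between 98.8 and 1334 CPM in YG8-800 and between 432.4 and 1088 CPM in WT, without separating the groups. The part of cell composition in the values above was not tested. With *Xist* as a covariate, 4 members passed the unadjusted threshold (6.45%, background 6.21%) and none the adjusted one.

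**Figure D4:**
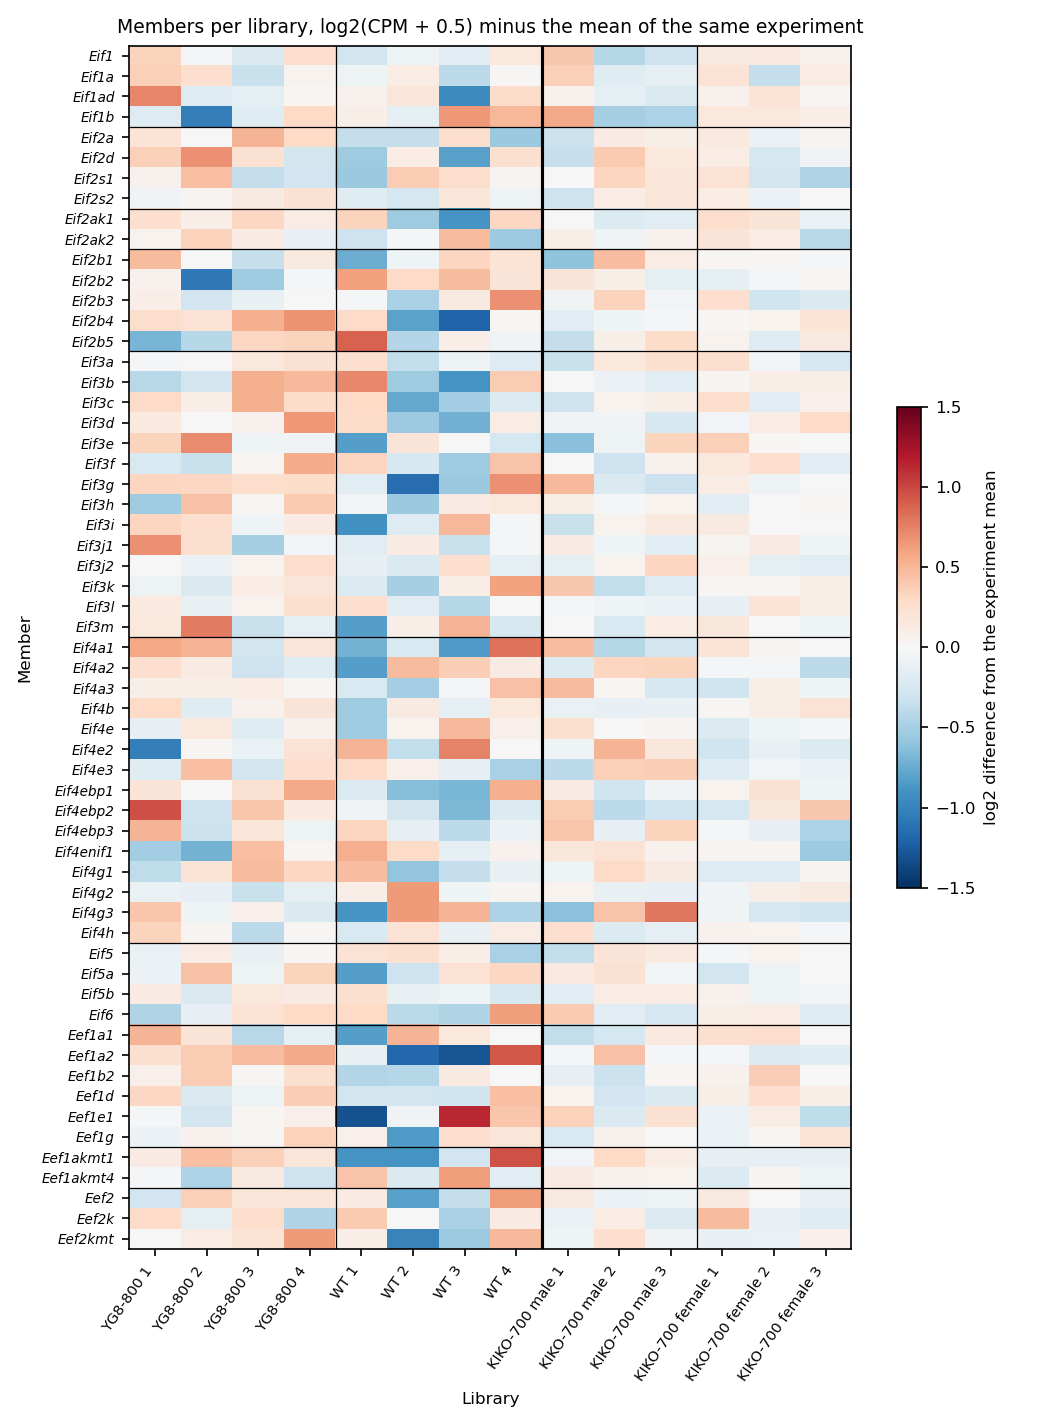
Colour shows log2(CPM + 0.5) of each member tested in both comparisons (59 rows, grouped by complex) minus its mean over the libraries of the same experiment; columns are libraries and the thick line separates the experiments. The WT columns hold the strongest colours, such as *Eef1a2* low in WT 2 and WT 3 and high in WT 4, and KIKO-700 male 1 differs from males 2 and 3 in *Eif1*, *Eif1b* and *Eif4g3*.

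The comparison of KIKO-700 males with females asks whether factor mRNAs differ by sex within this line. Of the 65 members, 59 were tested, and *Eef1akmt2*, *Eif2ak3* and *Eif2ak4* joined the 3 that were too low. None passed an adjusted p of 0.05 by edgeR or DESeq2, where 8 of 11801 genes (0.0678%) did by edgeR. At an unadjusted p under 0.05 there was 1 member (1.69%), higher in males, against a background of 7.14% (3.39% higher and 3.75% lower). The log2 fold changes were split evenly, 30 above and 29 below 0 (50.8% above, against 50.9% of all genes), with a median of 0.00 for members and 0.01 for all genes. The groups did not overlap in 10 members (16.9%), against 12.7% of all genes.

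That member was *Eif4e2* (ENSMUSG00000026254, chr1:87213914-87240488). It was at 20.3, 30.4 and 23.9 CPM in males, against 17.2, 19.7 and 18.4 CPM in females. Every male was above every female, and male 2 was the highest. The log2 fold change was 0.43 ± 0.18 (SE), with an unadjusted p of 0.0299 and an adjusted p of 0.650 by edgeR. Without male 2 it was 0.28, with an unadjusted p of 0.155 by edgeR, and the unadjusted p was under 0.05 in 13 of 17 alternatives.

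The eIF4 group as a whole had a median log2 fold change of 0.20, with 9 of 15 genes above 0. The 4 members whose groups did not overlap (26.7% of the 15, against 12.7% of all genes) were *Eif4e2*, *Eif4e* and *Eif4enif1* (higher in males) and *Eif4b* (lower in males). *Eif4e*, the cap-binding protein itself, was at 94.4, 80.0 and 82.5 CPM in males, against 69.2, 76.6 and 79.2 CPM in females. *Eif4enif1*, the carrier that brings eIF4E into the nucleus, averaged 7.29 ± 0.405 CPM in males and 5.89 ± 1.39 CPM in females (SD, n = 3 each). *Eif4b* was at 37.9, 37.3 and 37.7 CPM in males, against 41.0, 43.5 and 47.2 CPM in females, a log2 fold change of −0.22 that was the lowest of the group. *Eif4g3* had the highest, 0.54, from 6.90, 14.7 and 19.1 CPM in males, against 10.5, 9.06 and 8.71 CPM in females. Male 1 lay below all females and males 2 and 3 above them. *Eif4ebp1*, *Eif4ebp2* and *Eif4ebp3* had log2 fold changes of −0.14, −0.19 and 0.49, none past a threshold.

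The eIF2B subunits differed little between the sexes, with log2 fold changes between −0.18 (*Eif2b4*) and 0.17 (*Eif2b3*). *Eif2b2* was at 25.6, 23.7 and 20.1 CPM in males, against 20.2, 22.0 and 22.8 CPM in females, and the groups overlapped. *Eif2b4* was at 20.6, 22.2 and 22.8 CPM in males, against 23.5, 24.1 and 26.9 CPM in females, with every male below every female and an unadjusted p of 0.248 by edgeR. *Eif2b1* and *Eif2b5* had log2 fold changes of 0.05 and 0.03. Of the kinases, *Eif2ak1* averaged 11.8 ± 0.956 CPM in males and 14.2 ± 1.88 CPM in females, and *Eif2ak2* 1.66 ± 0.118 CPM in males and 1.58 ± 0.442 CPM in females (SD, n = 3 each).

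In eIF3, 10 of 14 genes had log2 fold changes below 0, between −0.24 for *Eif3d* and 0.16 for *Eif3j2*, with a median of −0.08. *Eif3d* was at 36.9, 36.8 and 32.3 CPM in males, against 37.2, 41.3 and 46.6 CPM in females, and *Eif3b*, a scaffold subunit, at 19.1, 17.8 and 17.0 CPM in males, against 19.6, 20.4 and 20.2 CPM in females. In these 2 genes the sexes did not overlap (14.3% of the 14, against 12.7% of all genes), and neither passed the unadjusted threshold. *Eif3c* and *Eif3k* had log2 fold changes of −0.11 and −0.07.

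The eEF1 genes had a median log2 fold change of −0.19, which was −0.12 without male 1 and −0.28 with at least 10 counts required in every library. *Eef1d* was at 150.3, 118.2 and 124.7 CPM in males, against 154.1, 172.5 and 154.9 CPM in females, with no overlap and an unadjusted p of 0.0808 by edgeR. *Eef1b2* and *Eef1g* had log2 fold changes of −0.28 and −0.10, and *Eef1e1* 0.33. *Eef1a1* averaged 140.2 ± 27.4 CPM in males and 174.8 ± 17.7 CPM in females, and *Eef1a2* 314.2 ± 60.7 CPM in males and 258.6 ± 18.8 CPM in females (SD, n = 3 each). Their count ratio was 2.33, 2.97 and 1.63 in males, against 1.53, 1.32 and 1.62 in females. Every male was above every female, though male 3 and female 3 were nearly level at 1.63 and 1.62, and the exact two-sided permutation p was 0.100, the smallest that 3 against 3 can give (adjusted 0.400). The *Eif4a2* to *Eif4a1* ratio was 0.597, 1.63 and 1.46 in males, against 0.812, 0.912 and 0.728 in females (exact two-sided permutation p = 0.400, adjusted 0.400), with male 1 below and males 2 and 3 above all females. *Eef2* averaged 636.1 ± 55.9 CPM in males and 643.7 ± 54.2 CPM in females, and *Eef2k* had a log2 fold change of −0.17. The 2 methyltransferases tested, *Eef1akmt1* and *Eef1akmt4*, did not overlap between the sexes, which held for 12.7% of all genes. Their log2 fold changes were 0.26 and 0.18, with p above 0.05 by edgeR.

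The count of members called changed most when KIKO-700 male 1 was left out. Without it, 15 of 60 members (25.0%) passed an unadjusted p of 0.05, against 21.3% of all genes, and 6 (10%) an adjusted p of 0.05 by edgeR, against 7.06% of all genes. Of those 6, *Eif4g3*, *Eif4e2*, *Eif4e3* (a cap-binding paralog) and *Eif4a2* were higher in males, with log2 fold changes of 0.86, 0.55, 0.48 and 0.47. *Eif1* and *Eif1b* were lower, with −0.48 and −0.63. *Eif1b* was at 144.3, 68.7 and 70.2 CPM in males, against 108.4, 108.9 and 104.5 CPM in females. *Eif1* was at 330.8, 186.0 and 201.5 CPM in males, against 275.1, 277.0 and 261.1 CPM in females. In both genes male 1 was above all females and the other males were below them. The adjusted p of the 6 was between 0.00314 and 0.0483 by edgeR, in a fit of 2 males against 3 females, which was 1 of the 6 that left out each library in turn.

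**Figure D5:**
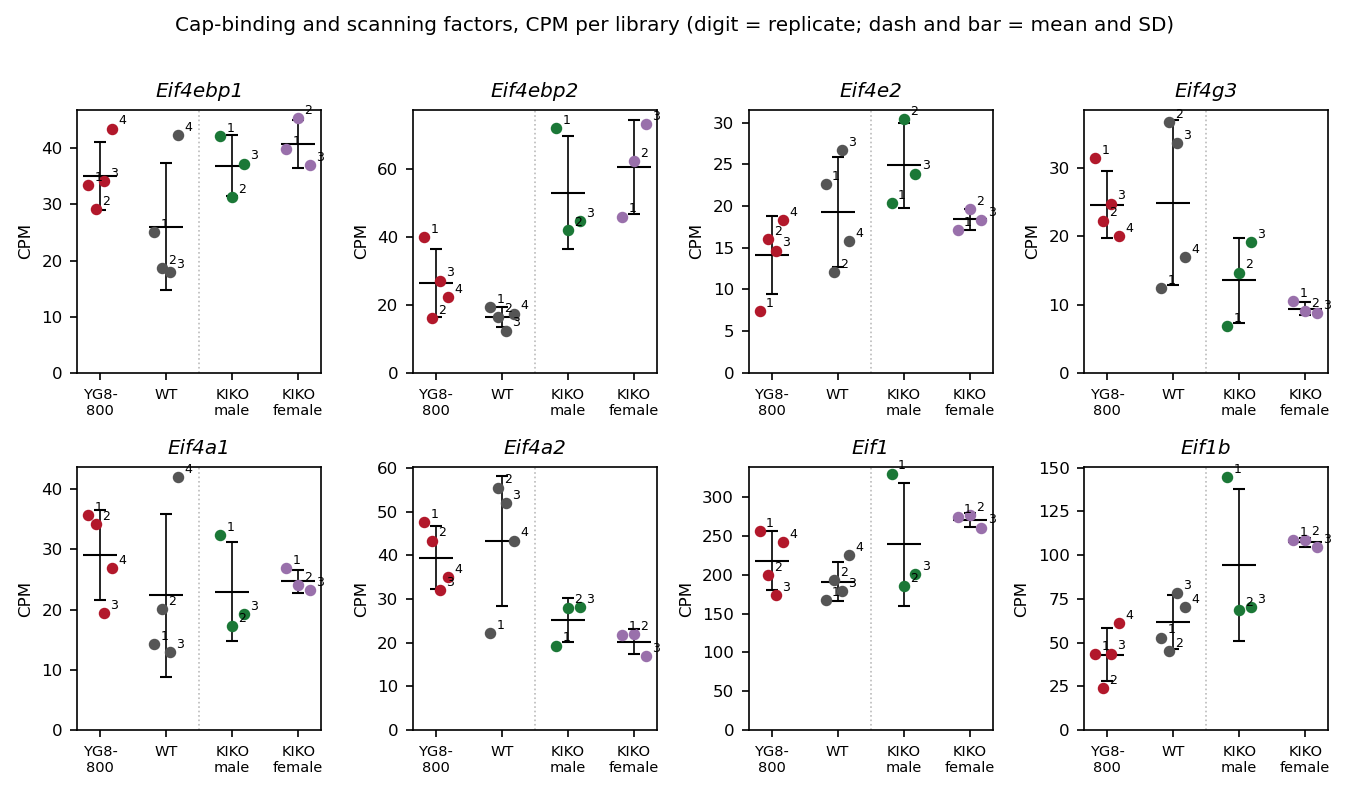
CPM (y axes, from 0) of 8 cap-binding and start-codon factors in every library; the digit is the replicate, the dash the mean and the bar the SD, and the dotted line separates the experiments, which were scaled separately. *Eif4e2* is higher in every KIKO-700 male than in every female, and in *Eif4g3*, *Eif1* and *Eif1b* male 1 lies on the other side of the females from males 2 and 3.

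Some markers of other cell types differed between the sexes in KIKO-700. The endothelial *Pecam1*, *Cdh5* and *Kdr* summed to between 262.4 and 332.8 CPM in males and between 238.3 and 260.8 CPM in females, with *Cdh5* alone past the unadjusted threshold (log2 fold change 0.44) and none at 0. *Kdr* and *Pecam1* had log2 fold changes of 0.19 and 0.18, so all 3 were above 0. The sexes did not overlap in *Cdh5* and *Kdr*, as in 12.7% of all genes, and overlapped in *Pecam1*. Of the 3 macrophage markers, *Adgre1* was lower in males at the unadjusted threshold (log2 fold change −0.74), while *Csf1r* (0.17) and *Cd68* (−0.43) did not pass it. Their sum was between 112.9 and 132.2 CPM in males and between 107.0 and 135.0 CPM in females. Of the 4 fibroblast markers, *Lum* alone passed it (lower in males, −0.48), and their sum was between 455.9 and 704.8 CPM in males and between 575.2 and 673.9 CPM in females. The part of these cell types in the values above was not tested.

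Genes that work beside the members were also counted by list. At the unadjusted threshold, 6.05% of all genes passed in YG8-800 against WT and 7.14% in KIKO-700 males against females. Among 15 other cytosolic initiation, termination and recycling genes, the median was 0.06 in YG8-800 against WT. Only *Bzw1*, an eIF5 mimic, passed the unadjusted threshold (6.67%), with a log2 fold change of 0.57. In KIKO-700, 16 were tested with a median of 0.08, and 12.5% passed. Of these, *Paip2* (an inhibitor of poly(A)-binding protein) was higher in males at 0.57 and *Denr* (a recycling and reinitiation factor) lower at −0.33. Of the mTORC1 list only *Rps6*, a ribosomal protein and S6 kinase substrate, passed the unadjusted threshold. Its log2 fold change was 0.69 in YG8-800 against WT (14 genes tested, 7.14% passed) and −0.44 in KIKO-700 males against females (15 tested, 6.67%). Of 11 mitochondrial translation factors none passed in YG8-800 against WT, where the median was 0.21. In KIKO-700, 1 did (9.09%), *Gfm2* (a mitochondrial recycling factor, 0.46 in males against females). None of 22 aminoacyl-tRNA synthetases and scaffold genes passed in either comparison, and of 9 integrated stress response genes tested in KIKO-700 none passed. No gene of these lists passed an adjusted p of 0.05 by edgeR.

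KIKO-700 libraries and those of the YG8-800 experiment were scaled together to set levels side by side. Line, cohort and library preparation cannot be told apart here, and no test was made. Of 62 members kept, 4 were higher in all 6 KIKO-700 libraries than in all 8 others (*Eef2*, *Eef1d*, *Eif3k* and *Eif4a3*), where 6.7% of all genes were. Another 6 were lower (*Eif2s1*, *Eif2a*, *Eif3a*, *Eif3e*, *Eif5* and *Eif5b*), where 4.28% of all genes were. *Eef2* was between 562.9 and 672.1 CPM (median 587.1) in KIKO-700 and between 170.6 and 441.5 CPM (median 328.5) in YG8-800 and WT. *Eif2a* was between 3.37 and 4.77 CPM (median 4.52) in KIKO-700 and between 7.67 and 17.2 CPM (median 12.6) in YG8-800 and WT. *Eif4a3*, the helicase of the exon junction complex, was between 38.9 and 67.8 CPM in KIKO-700 and between 17.1 and 31.8 CPM in the others.

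Reads of some members can also be claimed by other loci. For 14 members, the last 500 bases of a coding transcript matched annotated pseudogenes at 95% identity or more, 34 pseudogenes in all. For *Eif2s2*, a pseudogene held 14425 counts over the 14 libraries against 14819 of the gene itself, between 42.4% and 60.7% of their sum per library. For *Eef1g* the pseudogene share was between 28.7% and 63.6%, for *Eif3m* between 12.1% and 26.9%, and for *Eef1b2* between 3.81% and 27.8%. With these counts added, the log2 fold change in YG8-800 against WT was 0.53 for *Eef1g*, against 0.13 without, with unadjusted p of 0.0982 and 0.643 by edgeR, and the same 3 members passed the unadjusted threshold. Inside the last exon of *Eef1a1*, the annotated microRNA gene *Gm26377* (chr9:78478528-78478635, same strand) was given 16456 counts against 19985 of *Eef1a1*. The ratio was between 0.762 and 0.930 in every library, at 0.831 to 0.930 in WT and 0.780 to 0.805 in YG8-800. Whether the 2 entries hold reads of the same transcript was not tested. Values of these members are therefore less certain than those of the others.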

How the data were processed

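Hearts were read as Lexogen QuantSeq FWD 3′ libraries. The authors deposited whole-number read counts per Ensembl gene, without normalization. The submitters' processing notes name STAR 2.5.0a, HTSeq 0.6.1 and GRCm38.p6, whereas the study's methods name ShortRead and Rsubread featureCounts on stranded reads. The sources were not reconciled here, nor was the age, which the study's text gives as older than the labels do. Of 54532 identifiers, 54409 matched GENCODE M21.

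In R 4.3.3, edgeR 4.0.16 was used. Genes kept by filterByExpr were normalized with TMM factors, and each comparison was fitted alone by robust quasi-likelihood, with Benjamini-Hochberg adjustment over all genes tested and a threshold of 0.05. CPM used TMM-scaled library sizes. Ratios of counts were tested by exact permutation. RefSeq promoter windows were searched on both strands. Pseudogene matches had at least 95% identity over at least 86 bases. The model was also run on simulated counts. Their log2 changes were larger than those of any member in the main fits, so recovery of smaller changes was not tried.

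Values were given for members past the unadjusted threshold, all tested eIF2B, eEF1 and kinase genes, *Eef2*, *Eef2k*, the eIF4E-binding proteins, *Eif4a1*, *Eif4a2* and the extremes of eIF3 and eIF4. Others named, such as *Eif4g2*, *Eif3g*, *Eif2a*, *Eif1*, *Eif1b* and *Eef1akmt1*, were chosen after their values were seen. Members and lists were chosen with earlier results of these data known. Alternatives were no scaling beyond library size, RLE or upper-quartile factors, a minimum of 10 counts per library or none, DESeq2 1.42.0, voom of limma 3.58.1, a replicate block, *Xist* as a covariate, each library left out, and pseudogenes left out or added. Matching pseudogenes by sequence and leaving out WT 2 with WT 3 were chosen after seeing the data. Precision is limited by 3 or 4 hearts per group and, for members under about 10 CPM, by counting. The labels do not say that replicates of a group come from separate litters or extractions. The gene altered in these lines is not reported here.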

Additional observations from a re-analysis of the deposited data

Results flagged for a closer look

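In WT 4, *Eef1d*, the delta chain of the eEF1 exchange complex, stood far from the rest of its group, at 105.0 CPM against 62.3 to 63.3 CPM in the other 3 WT libraries. The gap to the nearest library was 0.976 of the range of the 4. Of the 58 groups of 4 values examined in this way, 1 was so far apart, where chance alone would set apart about 5%. *Eef1a2* and *Eef2* were also highest in WT 4.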

How the results depend on the processing

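No member passed the adjusted threshold of edgeR under any alternative run, except without KIKO-700 male replicate 1. In YG8-800 against WT, the 3 members at an unadjusted p under 0.05 became 0 to 8 when each library was left out. The 8 came without WT 4 (12.9% of members, background 13.8%). The 1 came without WT 2 and the 0 without YG8-800 3, where 520 and 652 of all genes tested passed. With library size alone the medians were −0.030 for all members, 0.043 for eIF3 and −0.097 for eIF4, against −0.209 for all genes. Without WT 2 and WT 3 they were 0.059 for all members and 0.052 for eIF3, against 0.006 for all genes. Leaving out each library gave medians from 0.12 to 0.20 for all members, 0.16 to 0.27 for eIF3, −0.030 to 0.14 for eIF4, 0.099 to 0.31 for eEF1 (the highest without WT 4) and −0.39 to 0.058 for eIF2B. In KIKO-700 males against females, the 1 member became 2 without a filter on low counts. It became 0 to 15 with each library left out (0 to 6 at the adjusted threshold). The 15 and the 6 came without male 1 (25.0% and 10%, background 21.3% and 7.06%). With each library left out, medians ranged from −0.031 to 0.047 for all members, 0.0058 to 0.19 for eIF2B and −0.12 to −0.052 for eIF3. For eIF4 they were 0.12 to 0.21, and for eEF1 −0.23 to −0.12 (nearest 0 without male 1).

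Without WT 2 and WT 3 the difference in log2 ratio reversed, to −0.45 for *Eef1a2* to *Eef1a1* and 0.12 for *Eif4a2* to *Eif4a1*. With each library left out these differences ranged from 0.32 to 1.19 and from −0.905 to −0.25 in YG8-800 against WT, and from 0.39 to 0.83 and from 0.20 to 0.92 in KIKO-700. The cause of these shifts was not tested. Of 605 values of the 29 named members in YG8-800 against WT, 51 changed sign, and of 457 values of 27 members in KIKO-700, 14 did. No consistent pairing of libraries by replicate number was seen (correlations between −0.23 and 0.25). The replicate block gave 4 of 62 members at an unadjusted p under 0.05 in YG8-800 against WT, where 867 of 11875 genes passed. It gave 1 member in KIKO-700, and none at the adjusted threshold in either comparison. With totals as low as 5226233 counts, members near 1 CPM rest on few reads.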
